A study of Mus musculus with 13 samples.

Results

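Levels of 6 entries of a mouse miRNA array were followed through 13 neuroblastomas: mmu-miR-712-3p, mmu-miR-1907, mmu-miR-546, mmu-miR-3113-5p, mmu-miR-1940 and mmu-miR-5109. They are 6 of the 1079 mouse miRNAs on the array and 6 of the 419 that were tested because the scanner software marked them as detected on at least 6 of the 13 arrays. They were selected on the contrast of the same tumours that is described here, as entries with higher means in the caspase-8-deficient group, and were collected as near-background or atypical entries. Their difference between the groups is therefore a description and carries no test. The near-background name held for mmu-miR-712-3p, mmu-miR-1907 and mmu-miR-546, each of which had probes under the negative control spots on some arrays. By that measure it did not hold for mmu-miR-3113-5p and mmu-miR-1940, whose probes lay above these controls on all 13 arrays. Their signals were low to moderate, and the software did not detect mmu-miR-1940 in wild-type replicates 2 and 3 or mmu-miR-3113-5p in wild-type replicate 3. The name did not hold either for mmu-miR-5109, which was among the 5 brightest mouse entries on every array.

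The tumours were primary abdominal neuroblastomas of TH-MYCN mice, which carry a MYCN transgene driven by the tyrosine hydroxylase promoter and develop tumours of the sympathetic lineage. In 6 tumours caspase-8, the initiator protease of death receptor apoptosis, was wild type and no bone marrow metastasis was recorded. In the other 7 caspase-8 was deficient and bone marrow metastasis was recorded. Both groups carry TH-MYCN. Genotype and metastasis changed together, so that they cannot be told apart, and the labels do not say how caspase-8 was lost, in which cells, or how old the mice were. The labels call the tumours of a group biological replicates. In whole tumours, fewer cells of a type and less RNA per cell cannot be told apart either.

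A miRNA is cut from a hairpin by Drosha and Dicer, and 1 arm of the hairpin is loaded into an Argonaute protein, where bases 2 to 8, the seed, choose the target mRNAs. An entry of the miRNA registry can rest on few reads, and some entries have turned out to be pieces of other RNAs. Mmu-miR-712 is such a case: its sequence lies in the spacer of the ribosomal RNA precursor, and it was described in endothelium as a product of that precursor. Mmu-miR-720, read here beside the 6, is widely regarded as a fragment of a transfer RNA. No function in neuroblastoma is assumed for any of the 6.

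Of the 6, the RefSeq table of mature sequences held only mmu-miR-546, so it alone can be shown. It lies at chr10:126998471-126998486 on the plus strand of GRCm38.p6. The sequence is shown to make plain how short and how rich in G it is, with the seed in capitals.
mmu-miR-546: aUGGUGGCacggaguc

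It has 16 bases, of which 62.5% are G or C. No other mouse entry on the array with a sequence in the table had the seed UGGUGGC. In the RefSeq table of genes, a separate one, the gene Mir546 lay within the protein-coding gene Ctdsp2, Mir1907 within Trps1 and Mir3113 within Huwe1. The nearest neighbours of Mir3113 were Mirlet7f-2 and Mir98.

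The array facts that bear on these entries are few. Each array gave 338 to 469 detected mouse miRNAs, no spot was saturated, and the mean signal of the negative control spots was 3.58 to 6.06. All 6 neural and all 3 neuroendocrine marker miRNAs were detected on all 13 arrays. Of the 2 markers listed for adrenal or liver, miR-122-5p, the miRNA of hepatocytes, was detected on 1 array and miR-202-3p on all 13. The summed levels of the neural and of the neuroendocrine markers overlapped between the groups. Neural sums were 11.71 to 12.98 on the log2 scale in wild-type and 11.94 to 12.74 in deficient tumours. The arrays lay on 2 slides: slide 1 held wild-type replicates 1 and 2 and deficient replicates 2, 3, 5, 6 and 7, and slide 2 held the other tumours. Slide and group are thus partly mixed. Over all tested miRNAs, limma called 0 of 419 between the groups at an adjusted p under 0.05, which is 0% of them, with a smallest adjusted p of 0.448 and 16 at an unadjusted p under 0.05. Those higher in deficient tumours at an unadjusted p under 0.05 numbered 10, or 2.39% of those tested, and all 6 entries were among these 10 because that contrast chose them. The median difference over all 419 was 0.04, and 227 were higher in deficient tumours.

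Levels below are log2 values of the summed probe signal after each array was scaled to the 75th percentile of its 294 always-detected mouse miRNAs. Values under a floor of 4.10 on that scale were raised to it. A difference is the deficient mean less the wild-type mean of these log2 values.

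Mmu-miR-712-3p had the largest difference of the 6 under the main scaling with no block, though not with slide in the model, where mmu-miR-1907 was higher, or with the raised floor. Its level in wild-type tumours was 4.10 at the lowest, 5.31 at the median and 5.79 at the highest, with replicate 3 at the floor. In deficient tumours it was 5.76 at the lowest, 6.24 at the median and 7.20 at the highest. The lowest deficient tumour, replicate 7, lay just under the highest wild-type tumour, replicate 4, and the other 6 deficient tumours lay above all wild-type tumours. The means were 5.18 ± 0.63 (SD, n = 6) and 6.41 ± 0.49 (SD, n = 7), a difference of 1.23 (SE 0.30). Its size moved with the processing: it was 0.36 with the floor raised by a factor of 4, 0.43 with the mean of log2 probe levels and 0.21 with normexp background. With slide in the model the difference was 1.13, and the tumours of slide 1 alone gave 1.20 and those of slide 2 gave 1.05. The software marked it as detected in 4 wild-type and all 7 deficient tumours. Before scaling, the summed signal ran from 2.01 to 51.3 in wild-type and from 61.5 to 146.3 in deficient tumours, so that the groups did not overlap. Across all tested miRNAs 0% were higher in deficient tumours without overlap on the scaled values, and 0.239%, mmu-miR-712-3p alone, on the unscaled ones.

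Mmu-miR-1907 did not exceed the floor in 2 wild-type tumours, replicates 2 and 3. Its levels in wild-type tumours were 4.10 at the lowest, 4.64 at the median and 6.08 at the highest, and in deficient tumours 4.86, 5.89 and 6.68. The groups overlapped widely: wild-type replicate 4 lay above 5 of the 7 deficient tumours. The means were 4.81 ± 0.77 (SD, n = 6) and 5.89 ± 0.57 (SD, n = 7), a difference of 1.08 (SE 0.35). It came to 1.20 with slide in the model, to 1.64 on slide 1 and to 0.72 on slide 2. It was detected in 3 wild-type and 6 deficient tumours. With the floor raised by a factor of 4 the difference was 0.12.

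Mmu-miR-546, the short entry shown above, ranged from 4.10 to 5.71 in wild-type tumours with a median of 5.34, and from 4.53 to 7.42 in deficient tumours with a median of 6.74. Of the 7 deficient tumours 5 lay above every wild-type tumour, while replicates 4 and 7 lay within their range. The means were 5.12 ± 0.62 (SD, n = 6) and 6.31 ± 1.05 (SD, n = 7), a difference of 1.20 (SE 0.45). With slide in the model it was 0.96, on slide 1 alone 1.21 and on slide 2 alone 0.70. The software detected it in 3 wild-type and 6 deficient tumours.

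Mmu-miR-3113-5p held places 189 to 370 among the 1079 mouse entries when these were ordered by signal on each array. Its level was 4.98 at the lowest, 6.61 at the median and 7.10 at the highest in wild-type tumours, and 6.04, 7.61 and 7.99 in deficient ones. Deficient replicates 1, 4 and 7 lay within the wild-type range. The difference was 0.99 (SE 0.42) between means of 6.29 ± 0.89 (SD, n = 6) and 7.28 ± 0.72 (SD, n = 7). With slide in the model it was 0.66, on slide 1 alone 0.38 and on slide 2 alone 0.96. The other arm of its hairpin, mmu-miR-3113-3p, was detected on 1 array only and stood at the floor in 5 wild-type and all 7 deficient tumours.

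Mmu-miR-1940 ran from 4.94 to 6.79 in wild-type tumours, with a median of 5.51, and from 5.48 to 8.10 in deficient tumours, with a median of 6.32. Only deficient replicates 2 and 5 exceeded the highest wild-type tumour, replicate 4. The means were 5.62 ± 0.69 (SD, n = 6) and 6.54 ± 0.91 (SD, n = 7), a difference of 0.93 (SE 0.42), or 0.87 with slide in the model. It was 1.61 on slide 1 alone and 0.07 on slide 2 alone. The software marked it as detected in 4 wild-type and 7 deficient tumours.

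Mmu-miR-5109 was read at a high signal in every tumour. Unscaled, it was 23622 to 35180 in wild-type and 34112 to 91557 in deficient tumours, place 2 to 5 of 1079 in both groups. The scaled level was 14.48 at the lowest, 15.11 at the median and 15.21 at the highest in wild-type tumours, and 14.69, 15.83 and 16.92 in deficient ones. Deficient replicates 1 and 7 lay at the wild-type level, and the other 5 lay above all wild-type tumours. The means were 15.02 ± 0.27 (SD, n = 6) and 15.78 ± 0.76 (SD, n = 7), a difference of 0.76 (SE 0.32), which came to 0.57 with slide in the model, 0.78 on slide 1 and 0.34 on slide 2. With quantile normalization the difference was 0.13. That method gives equal values to equal ranks, and mmu-miR-5109 held nearly the same ranks in both groups.

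**Figure D1:**
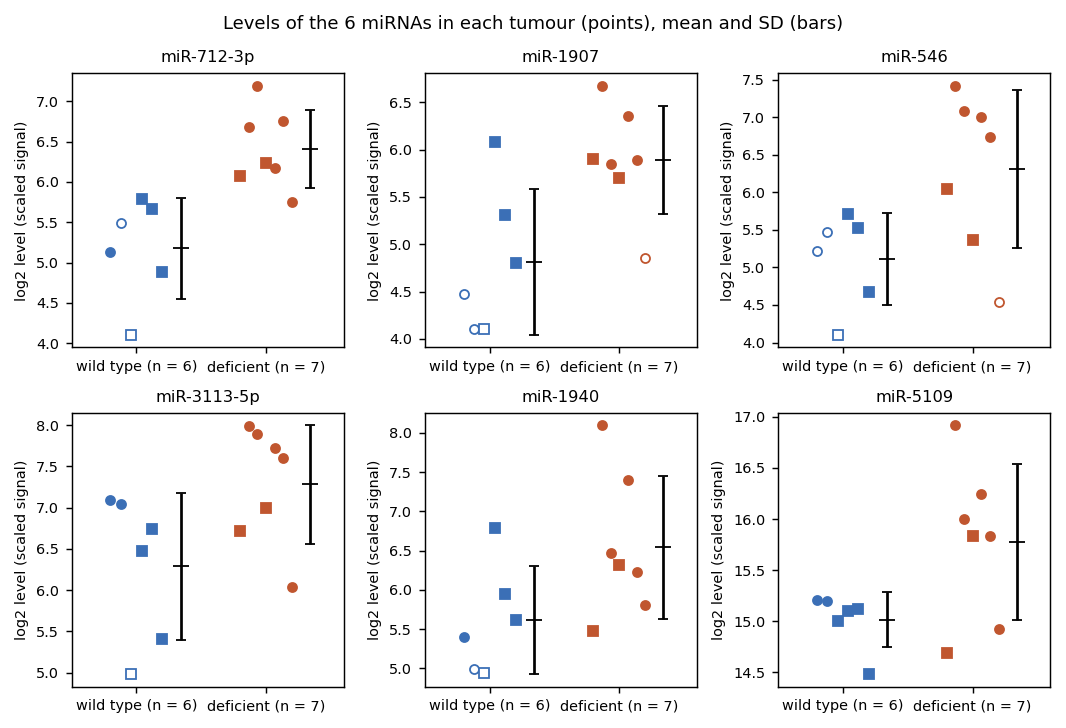
Log2 scaled level of each of the 6 miRNAs (y axis, a separate scale in each panel) in the 6 wild-type and 7 deficient tumours (x axis). Circles are slide 1 and squares slide 2, open symbols are tumours where the software did not mark the miRNA as detected, and the bars give the mean and SD; the groups overlap in every panel, for mmu-miR-712-3p by 1 tumour on each side, 5.76 against 5.79.

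Each miRNA was read by 2 or 4 probes, and the probes did not contribute alike. For mmu-miR-712-3p, probe 1 had a mean signal of -10.2 to 0.15, under the negative controls on all 13 arrays and below 0 on 12. Its probe 2 was under the negative controls on 4 arrays. Probes 3 and 4 carried the signal, with medians of 20.4 and 19.0 in wild-type and 38.5 and 41.4 in deficient tumours. Taken alone, probe 3 gave a difference of 0.70 and probe 4 of 0.93, whereas probes 1 and 2, mostly at the floor, gave 0 and 0.07. The floor was set on signals summed over probes, so that it compresses the differences of weak single probes here and below. Before scaling and without the floor, the mean signal of probe 2 was 3.73 in wild-type and 14.1 in deficient tumours, and that of probe 1 was -7.81 and -5.53.

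Mmu-miR-546 had the same pattern. Its probe 1 lay under the negative controls on all 13 arrays and gave a difference of 0, and probes 2, 3 and 4 alone gave 0.69, 0.79 and 0.77. In mmu-miR-1907, mmu-miR-3113-5p, mmu-miR-1940 and mmu-miR-5109 both probes were above the negative controls on most or all arrays and gave like differences, of 0.65 and 0.59, 0.96 and 0.98, 0.89 and 0.88, and 0.71 and 0.79.

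Where probes had signal, they rose and fell together. Within groups, the signals of the probes other than probe 1 correlated at 0.87 to 0.93 for mmu-miR-712-3p and at 0.97 to 0.98 for mmu-miR-546. For mmu-miR-712-3p this includes probe 2, whose scaled value stood at the floor on 12 arrays. Probe 1 of mmu-miR-546, though under the negative controls, still correlated with its other probes at 0.61 to 0.67. Probe 1 of mmu-miR-712-3p correlated with its other probes at -0.03 to 0.23. The pairs of probes of the other 4 entries correlated at 0.95 for mmu-miR-1907, 0.998 for mmu-miR-3113-5p, 0.995 for mmu-miR-1940 and 0.957 for mmu-miR-5109 (n = 13 tumours each). For probe 1 of mmu-miR-3113-5p the SD between tumours was 32.2 and the median SD among its spots on an array was 5.03. The same 2 values were 2.68 and 3.37 for probe 1 of mmu-miR-712-3p, and 3.20 and 3.52 for probe 1 of mmu-miR-546. Probes of 1 miRNA share the sample and the array, so that their correlation speaks to the reading of an array and not to separate samples.

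**Figure D2:**
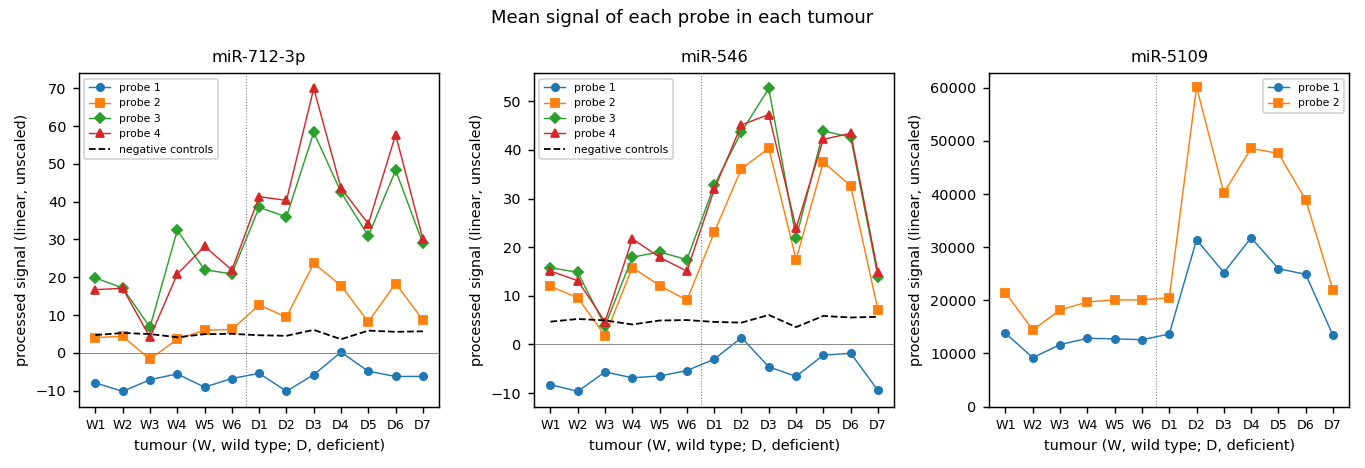
Mean processed signal of each probe (y axis, linear and unscaled) in wild-type tumours W1 to W6 and deficient tumours D1 to D7 (x axis) for 3 of the entries; the dashed line is the mean of the negative control spots. Probe 1 of mmu-miR-712-3p and of mmu-miR-546 lies under the dashed line in all 13 tumours, and both probes of mmu-miR-5109 step up in D2 to D6.

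The tumours within a group were then compared with the difference of the groups removed. The 6 were put together with results of these tumours in view, so that the counts below describe them and are no independent evidence. Each level was taken as a deviation from its group mean, and the 15 pairs of the 6 entries were correlated over the 13 tumours. All 15 correlations were positive, from 0.44 to 0.86 with a median of 0.69, and Spearman's rho ran from 0.20 to 0.84. Over all 87571 pairs of tested miRNAs the median was -0.003, and 17.7% of pairs reached 0.45. With 100000 permutations within groups, two-sided and adjusted over the 15 pairs, 9 pairs passed 0.05 by Pearson's r, and 9 by Spearman's rho. The permutation test was not run over all tested pairs, so that no share of them stands beside this count. The count rested on scaling and on single tumours: it was 4 without scaling, 3 with scaling to the total signal, 2 with normexp background, and 5 without deficient replicate 7. The median r was 0.60 among wild-type and 0.76 among deficient tumours.

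The closest pair was mmu-miR-546 and mmu-miR-3113-5p, with r = 0.86 and rho = 0.67 (n = 13, permutation adjusted p = 0.002 and 0.018). Each pair was also read without the 2 tumours farthest from the median of its second entry. Here the second entry was mmu-miR-3113-5p, and r was 0.74 without wild-type replicate 3 and deficient replicate 7. Mmu-miR-1907 and mmu-miR-1940 followed with r = 0.84 and rho = 0.73 (n = 13, permutation adjusted p = 0.002 and 0.018). Their r was 0.71 without the 2 tumours farthest from the median of mmu-miR-1940. At the other end stood mmu-miR-1907 and mmu-miR-3113-5p, with r = 0.45 and rho = 0.20 (n = 13, permutation adjusted p = 0.156 and 0.545). There r was 0.015 without the 2 tumours farthest from the median of mmu-miR-3113-5p, again wild-type replicate 3 and deficient replicate 7. The size of r over the 13 tumours thus depended on those tumours. Slide 2 less slide 1, with group in the model, was 0.31 (SE 0.39) for mmu-miR-1907 and -0.87 (SE 0.40) for mmu-miR-3113-5p. The part of the slides in the r over the 13 tumours was not tested. Leaving out the 2 tumours farthest in mmu-miR-1907 was not tried. On each slide alone, with the group means removed, r of this pair was 0.89 (n = 7) and 0.83 (n = 6). Each of these values still held 1 of those tumours, deficient replicate 7 on slide 1 and wild-type replicate 3 on slide 2.

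Within slide 1 the median of the 15 correlations was 0.89 and all were positive. Within slide 2 the median was 0.83, with 14 positive. When deviations were taken from the mean of each group on each slide, 8 pairs passed. No difference between slides passed in the limma fit with group in the model, 0 of 419 or 0% at an adjusted p under 0.05, with 26 at an unadjusted p under 0.05. The largest slide difference of the 6 was that of mmu-miR-3113-5p, -0.87 (SE 0.40, limma adjusted p = 0.758) on slide 2 against slide 1.

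A few tumours stood apart in most of the entries. In deficient replicate 7 all 6 entries lay below the group mean, by 0.66 for mmu-miR-712-3p at the least and 1.78 for mmu-miR-546 at the most. The mean deviation of the 6 was -1.05 there, -0.80 in wild-type replicate 3, 0.65 in wild-type replicate 4 and 0.93 in deficient replicate 2. In wild-type replicate 3 mmu-miR-5109 was an exception, at -0.01, while the other 5 lay 0.67 to 1.31 below the mean.

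**Figure D3:**
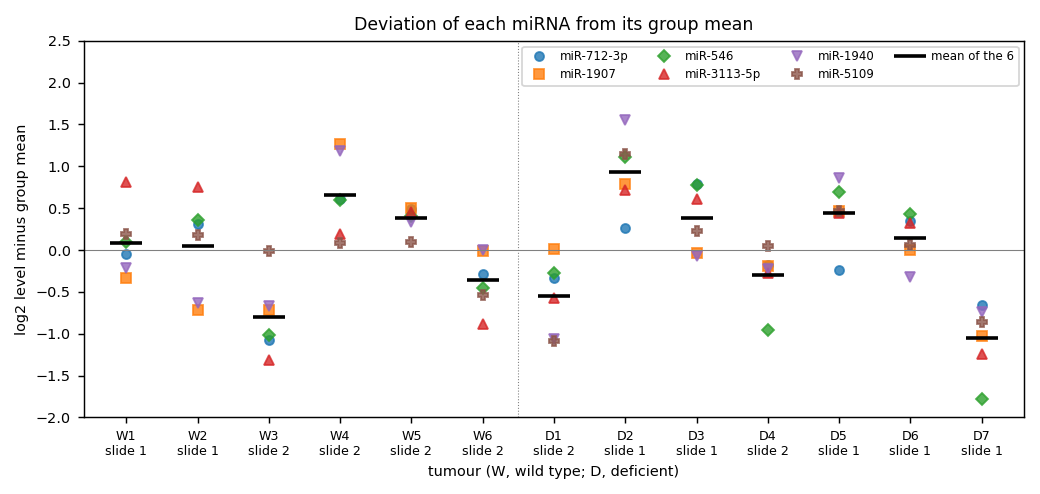
Log2 level minus the mean of the group (y axis) of each of the 6 miRNAs (symbols) in each tumour (x axis, with its slide); black bars are the mean of the 6. All 6 lie below 0 in D7, where the mean is -1.05, and all 6 lie above 0 in D2, where it is 0.93.

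Measures of the array as a whole were compared in the same way, with 5 measures and 30 pairs. None passed 0.05 after adjustment over the 30 by permutation, either by Pearson's r or by Spearman's rho, and 5 had an unadjusted permutation p under 0.05 by Pearson's r. The most negative was mmu-miR-5109 with the 75th percentile of the array, at r = -0.68 and rho = -0.80 (n = 13, permutation p = 0.005, adjusted p = 0.145). The levels had been divided by that percentile, so that the 2 quantities share a term. All 6 entries had a positive r with the mean level of the 10 viral entries detected on at least 6 arrays, from 0.49 to 0.63, with permutation adjusted p of 0.268 to 0.295. With the mean signal of the negative controls r was between -0.32 and 0.12. The part of these array measures in the group difference was not tested. The summed levels of the 7 lists of marker miRNAs that held tissue markers overlapped between the groups. Some lists nonetheless had means that differed with the group: both erythroid markers were higher in deficient tumours, with a median difference of 0.83, all 4 vessel markers were higher, with a median of 0.39, and all 3 neuroendocrine markers were lower, with a median of -0.29. None of these passed the limma test at an adjusted p under 0.05. The summed level of each list had an r with the mean deviation of the 6 that ran from -0.45 for the neuroendocrine list to 0.29 for the adrenal or liver list. Their part was not tested either.

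**Figure D4:**
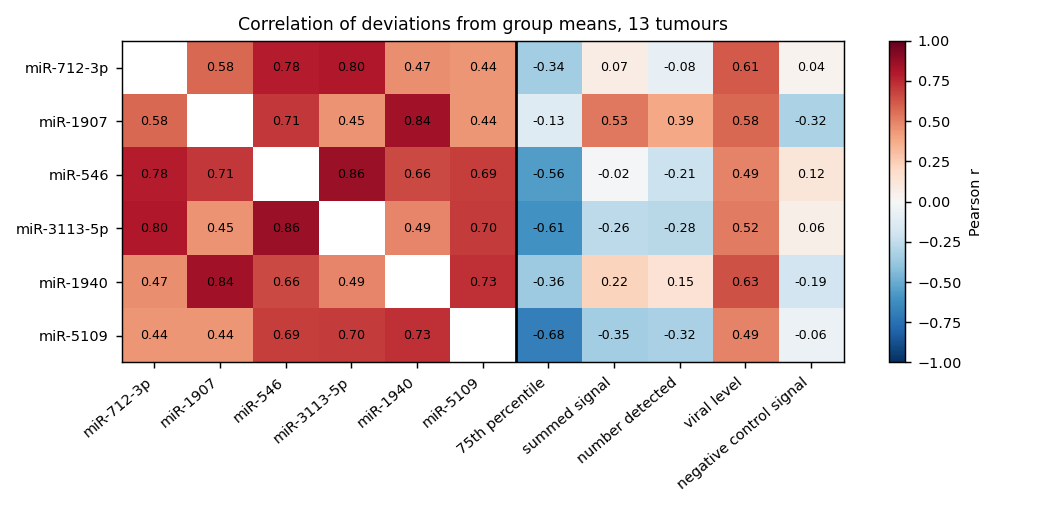
Pearson r (colour and number) of deviations from group means over 13 tumours between the 6 miRNAs (left block) and with 5 measures of each array (right block). The left block is positive throughout, 0.44 to 0.86, and in the right block the viral level alone is positive for all 6.

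The array also carries probes for miRNAs of mouse herpesviruses, for which no infection is stated in the labels. The entry mcmv-miR-m88-1* followed all 6, with a median r of 0.73 over the 13 tumours, while it hardly differed between the groups, by 0.01. Mmu-miR-1940 and mcmv-miR-M87-1 had an r of 0.93, and mmu-miR-3113-5p and mcmv-miR-M23-1-3p an r of 0.92. Other viral entries did not follow: mghv-miR-M1-2-5p and mghv-miR-M1-6 had a negative r with all 6, with medians of -0.22 and -0.23, and lower means in deficient tumours, by differences of -1.19 and -1.05. For mcmv-miR-M23-1-5p the median r was 0.06. These are descriptions across tumours that share arrays and scaling, and what the viral probes bound was not tested.

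For each entry, the 2 tested mouse miRNAs with the most similar pattern within groups were found, by Pearson r over the 13 tumours. They were mmu-miR-760-3p (0.90) and mmu-miR-2861 (0.88) for mmu-miR-712-3p, and mmu-miR-762 (0.94) and mmu-miR-3102-5p.2-5p (0.92) for mmu-miR-1907. For mmu-miR-546 they were mmu-miR-135a-1-3p (0.93) and mmu-miR-5128 (0.93). For mmu-miR-3113-5p they were mmu-miR-877-5p (0.97) and mmu-miR-290-5p (0.95), for mmu-miR-1940 mmu-miR-1894-3p (0.96) and mmu-miR-671-5p (0.96), and for mmu-miR-5109 mmu-miR-714 (0.89) and mmu-miR-1224-5p (0.88). All of these but mmu-miR-762, detected on 9 arrays, were detected on all 13. Their differences between groups were all positive, 0.30 for mmu-miR-290-5p to 0.85 for mmu-miR-135a-1-3p, with limma adjusted p of 0.589 to 0.743.

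Of the 12 partners, 10 had a mature sequence in the RefSeq table (GRCm38.p6). The partner of each entry with the highest r that has a sequence is shown, with the seed in capitals, to make their base composition visible.
mmu-miR-760-3p: cGGCUCUGggucugugggga
mmu-miR-762: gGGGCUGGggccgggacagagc
mmu-miR-135a-1-3p: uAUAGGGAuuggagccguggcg
mmu-miR-877-5p: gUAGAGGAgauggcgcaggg
mmu-miR-1894-3p: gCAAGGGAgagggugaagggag
mmu-miR-1224-5p: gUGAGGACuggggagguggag

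They come from chr3:122293615-122293634 on the minus strand, chr7:127708534-127708555 on the plus strand, chr9:106154179-106154200 on the plus strand, chr17:35960795-35960814 on the minus strand, chr17:35917938-35917959 on the plus strand and chr16:20604452-20604472 on the plus strand. Their seeds all differ. The 10 partners held 59.1% to 94.7% G and C with a median of 68.1%, against a median of 52.2% over the 1679 mature mouse sequences of the table, of which 30.7% reached 59.1%. G alone made up 45.5% of mmu-miR-135a-1-3p, 50% of mmu-miR-760-3p, 55% of mmu-miR-877-5p, 59.1% of mmu-miR-762 and of mmu-miR-1894-3p, and 61.9% of mmu-miR-1224-5p. In the partners not shown that have a sequence it ran from 43.5% in mmu-miR-5128 to 68.4% in mmu-miR-2861. No share of G over other miRNAs stands beside these values. The partners could come only from the tested miRNAs, so that the 1679 sequences are not a like background. A split of all tested miRNAs by G and C was void, since only 331 of the 419, 79.0%, had a sequence, less than the 80% required for it.

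The likeness extended well beyond the 6. The mean r of each entry with the other 5 was 0.60 to 0.74. Among the 413 other tested miRNAs the mean r with the 6 ran from -0.68 to 0.79 with a median of -0.07, and 62 of them reached the lowest value of the 6.

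**Figure D5:**
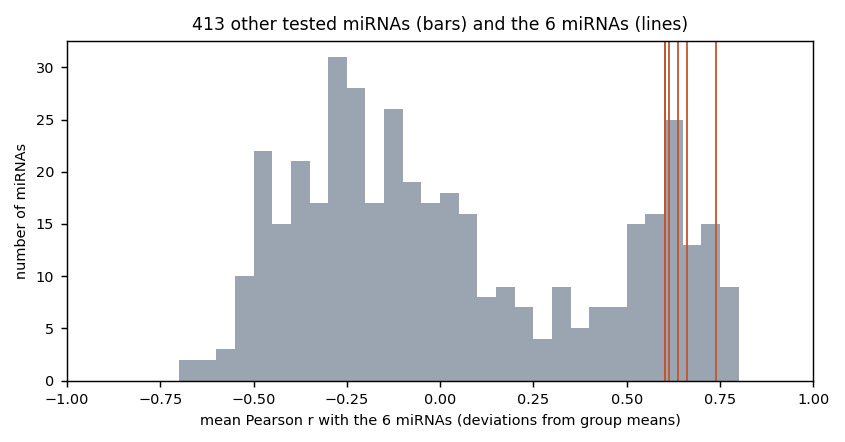
Number of other tested miRNAs (y axis) by their mean Pearson r with the 6 miRNAs (x axis; deviations from group means, 13 tumours); vertical lines mark the 6 themselves. The bars have a main body around the median of -0.07 and a second rise around the lines at 0.60 to 0.74.

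The other entries with registry numbers in the same 5 blocks of numbers as the 6 were also read; such numbers give an order of discovery and not of function. The 15 other tested entries numbered 5100 to 5199 had a median mean r of 0.60, and 11 had higher and 4 lower means in deficient tumours, with a median difference of 0.32. The 18 entries from 700 to 799 had a median mean r of 0.53, with 11 higher and 7 lower and a median difference of 0.24. The 7 entries from 3100 to 3199 had 0.51, with 4 higher and 3 lower, the 12 from 1900 to 1999 had 0.41, with 6 and 6, and the 16 from 500 to 599 had -0.05, with 9 and 7. None of these entries passed the limma test between groups at an adjusted p under 0.05. With the 6 left out, 60 of the 120 miRNAs detected on 6 to 12 arrays were higher in deficient tumours and 60 lower, and 161 of the 293 detected on all 13 arrays were higher. Such a balance depends on the scaling: over all 419 tested, 227 were higher and 192 lower here, but 307 and 112 without scaling and 178 and 241 with scaling to the total signal.

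Other pieces of ribosomal or transfer RNA and other products of the same loci were read where the array had them. Mmu-miR-712-5p, the other arm of mmu-miR-712-3p, was detected on all 13 arrays, with a wild-type mean of 7.61 ± 0.59 (SD, n = 6) and a deficient mean of 8.08 ± 0.64 (SD, n = 7). The 2 means differed by 0.47 (SE 0.33, limma adjusted p = 0.644). Within groups it followed mmu-miR-712-3p at r = 0.81 and mmu-miR-5109 at r = 0.53. Mmu-miR-720 stood at 14.28 ± 0.53 (SD, n = 6) and 14.34 ± 0.54 (SD, n = 7), means that differed by 0.06 (SE 0.29, limma adjusted p = 0.972). Within groups it had an r of -0.34 with mmu-miR-5109 and of -0.05 with mmu-miR-712-3p. Mmu-miR-5105, of the same block of numbers as mmu-miR-5109, followed mmu-miR-5109 within groups at r = 0.87. It differed between groups by 0.18 (limma adjusted p = 0.915). Let-7f-5p and mmu-miR-98-5p, whose genes neighbour Mir3113 and which were chosen after the gene table was read, had an r of -0.42 and -0.26 with mmu-miR-3113-5p and differed between groups by 0.02 and 0.13.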

How the data were processed

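Total RNA of each tumour was read on an Agilent mouse miRNA array in a single colour. The authors deposited scanner files with the intensity of every spot after background subtraction and detrending, per the file headers, and marks of detection and outliers, which are other information per the file headers. The headers name Feature Extraction 10.7.3.1, the submitters' processing notes 10.5.1.1. The deposited series matrix held log2 values with nearly equal columns, each with a median of 3.82, and served as an alternative; how it was summarised from probes is not given in the sources used.

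Spots without outlier marks were averaged per probe, probes were summed per miRNA, sums were scaled to the 75th percentile over 294 miRNAs, set to at least 17.2, percentile 1 of the detected values, and converted to log2. Groups and slides were fitted with limma 3.58.1 in R 4.3.3 over 419 miRNAs, two-sided, with Benjamini-Hochberg adjustment. On simulated data a log2 change of 2 between groups was called for 88.8% of changed miRNAs and a change of 1 for 48.5%. The simulated noise was normal and independent between miRNAs, with no floor. The measured levels have a floor and vary together, so that these shares need not hold for them. Correlations used 100000 permutations in Python 3.11.15. The members and all lists were chosen with earlier results of these data known. Named miRNAs were the 6, other arms of their numbers, entries regarded as RNA fragments, and the 2 closest partners of each; miR-1937a, b and c were not among the entries read. The marker lists of other cell types gave these ranges of summed log2 levels in wild-type and deficient tumours: neuroendocrine 12.12 to 13.20 and 11.53 to 12.95, erythroid 12.28 to 16.08 and 14.28 to 16.35, skeletal muscle 7.35 to 11.81 and 6.47 to 13.13, leukocyte 9.35 to 12.20 and 9.67 to 11.99, vessel 10.75 to 11.63 and 10.40 to 12.26, and adrenal or liver 7.01 to 7.55 and 6.98 to 7.83. The number of arrays limits the precision. Alternatives covered scaling, background, floor, probes, spots, filter, variance model, weights, slide, replicate number, the series matrix and leaving out each tumour.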

Additional observations from a re-analysis of the deposited data

Results flagged for a closer look

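In 1 of the 12 sets of values, each miRNA in each group, a tumour stood far from the rest. The level of mmu-miR-5109 in wild-type replicate 6 was 14.48 on the log2 scale, and its gap to the next wild-type tumour was 0.727 of the range of the 6, above the value that Dixon's test allows. Before scaling, the signal of this tumour was 32630, inside the wild-type range of 23622 to 35180, and its array had the largest scale factor of the 13, 1.43. Chance marks about 1 in 20 such sets. Without that tumour the difference between groups was 0.65, against 0.76 with it.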

How the results depend on the processing

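No difference of the 6 between the groups changed its sign. Of 112 differences under alternatives, 110 were positive and the other 2 were 0. Leaving out 1 tumour at a time gave 78 positive values: 1.02 to 1.36 for mmu-miR-712-3p, 0.93 to 1.33 for mmu-miR-1907, 0.99 to 1.49 for mmu-miR-546, 0.73 to 1.20 for mmu-miR-3113-5p, 0.67 to 1.16 for mmu-miR-1940 and 0.57 to 0.94 for mmu-miR-5109. The same tumours chose the 6, which favours the sign. The values that moved by more than the spread were these, and the cause was not tested except where given. Normexp background gave 0.21 for mmu-miR-712-3p, 0.27 for mmu-miR-1907, 0.23 for mmu-miR-546 and 0.10 for mmu-miR-5109. A floor raised by a factor of 4 gave 0.36 for mmu-miR-712-3p and 0.12 for mmu-miR-1907. The mean of log2 probe levels gave 0.43 for mmu-miR-712-3p, which includes probes at the floor. Its probe 1 alone gave 0 and probe 2 alone 0.0669, and probe 1 of mmu-miR-546 gave 0. In these, the floor set on summed signals was applied to single probes, which compresses their differences. For mmu-miR-5109, quantile normalization and the series matrix both gave 0.13; quantile normalization equalises values of equal rank. Within slide 2 mmu-miR-1940 differed by 0.0732. Of the 15 pairs, 5 passed with the raised floor, with the percentile over all mouse miRNAs and with the series matrix, 4 without scaling and with quantile normalization, 3 with the total signal and 2 with normexp, and 5 to 9 when 1 tumour was left out. Of the 30 pairs with array measures, 1 passed with the percentile over all mouse miRNAs, and 0 to 1 when 1 tumour was left out. The limma count between groups was 0 in all 29 alternatives, with other variance models and array weights too. Without scaling the median of all tested miRNAs was 0.22 higher in deficient tumours, with 307 higher and 112 lower, against 227 and 192, and with the total signal 178 and 241; relative to that median mmu-miR-5109 stood at 0.74 without scaling and 0.72 with it. Replicate numbers 1 to 6 occur in both groups but paired tumours of 1 number correlated at only -0.22 to 0.19, and none best with its own number. Over the 12 tumours with replicate numbers 1 to 6 the difference of mmu-miR-712-3p was 1.34, with and without a replicate block. The fit without the block was chosen after seeing the data. In this balanced set the block cannot change the difference, so that the equal values are no check. The set differs from the full one only in leaving out deficient replicate 7. Signals of mmu-miR-712-3p, mmu-miR-1907 and mmu-miR-546 lie close to the negative controls on some arrays, which limits their values.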
